A study of Mus musculus with 2 samples.

Results

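The unfolded protein response and the integrated stress response were followed through 34 genes in tumours of LLC cells, an established line of mouse Lewis lung carcinoma. The genes were listed by symbol as known members of these pathways, with earlier results of these data known, and all 34 were found among the 34097 genes listed. They fall into 15 chaperones and folding factors of the endoplasmic reticulum (ER), 6 genes of ER-associated degradation, 4 stress sensors and ER transcription factors, and 9 genes made up of Atf4 and its targets. Droplet single-cell RNA-seq, in which each captured molecule is counted once by its unique molecular identifier (UMI), was done on 1 control tumour labelled NC and 1 tumour labelled SH that received a short hairpin RNA against Gfpt2, a hexosamine pathway enzyme. The series asks how this knockdown bears on immune cells and cell communication in the tumour. Both are labelled as lung cancer xenografts, and which cells received the hairpin is not stated beyond that. Strain, sex and age of the hosts, the day of collection and whether animals were pooled are not given in the sources used here. There was 1 library per group and so no replicate error, no test was run, and every interval covers counting error only.

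The ER folds secreted and membrane proteins, and unfolded protein there is sensed by Ern1 (IRE1), Eif2ak3 (PERK) and Atf6. IRE1 splices the Xbp1 message, cleaved ATF6 enters the nucleus, and both factors raise chaperones such as Hspa5 (BiP). PERK and its sister kinases phosphorylate eIF2, which slows protein synthesis and favours translation of Atf4, a factor that drives amino acid synthesis and transport genes such as Asns, Psat1 and Phgdh. Ddit3 (CHOP), Trib3, Chac1 and Sesn2 lie downstream of the same factor, and Ppp1r15a (GADD34) reverses eIF2 phosphorylation. Since splicing, cleavage and phosphorylation are not seen in gene counts, the values below are levels of message and not of pathway activity.

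The promoters are shown because the chaperones and the Atf4 targets are known to answer to different DNA elements. RefSeq windows (GRCm38.p6) of 250 bases before to 50 bases after the annotated start were matched for 30 of the 34 genes, leaving out Manf, Hyou1, Derl1 and Atf6. The ER stress response element, searched as CCAAT, 9 bases of any kind and CCACG on both strands, was present in 7 of 13 chaperone genes and in Syvn1, against 37 of 27025 genes with a window (0.137%). It was found in none of the 9 Atf4-arm genes. In the lines below, capitals mark the fixed bases of the element, with 12 bases on each side, 5′ to 3′ along the gene. Calr, Creld2 and the second match of Hsp90b1 carry it on the opposite strand.
Hspa5 (chr2:34772013-34772055, + strand): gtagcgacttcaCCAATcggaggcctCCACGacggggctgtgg
Pdia6 (chr12:17266479-17266521, + strand): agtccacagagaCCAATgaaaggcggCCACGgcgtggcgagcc
Dnajc3 (chr14:118937815-118937857, + strand): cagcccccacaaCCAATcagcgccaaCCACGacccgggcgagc
Canx (chr11:50325788-50325830, - strand): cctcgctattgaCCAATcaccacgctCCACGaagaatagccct
Hsp90b1 first match (chr10:86705626-86705668, - strand): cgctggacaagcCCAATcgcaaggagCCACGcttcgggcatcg
Hsp90b1 second match (chr10:86705521-86705563, - strand): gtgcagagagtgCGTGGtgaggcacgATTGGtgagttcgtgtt
Calr (chr8:84847063-84847105, - strand): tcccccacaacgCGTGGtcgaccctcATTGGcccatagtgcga
Creld2 (chr15:88819508-88819550, + strand): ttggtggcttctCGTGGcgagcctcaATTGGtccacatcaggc
Syvn1 (chr19:6046520-6046562, + strand): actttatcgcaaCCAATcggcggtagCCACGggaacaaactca

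A shorter variant, ATTGG, 1 base of any kind and CCACG, was present in 12 of 27025 genes (0.0444%), among them Herpud1 and Dnajb11. The composite site of ATF4 and C/EBP proteins, searched as TGATGNAA on both strands, was present in 1219 of 27025 genes (4.51%) and in 3 of 9 Atf4-arm genes, Asns, Chac1 and Trib3, as well as in Herpud1. Herpud1, a degradation factor known to be induced through both branches, thus matched an element of each kind. The matches of Trib3 and Dnajb11 lie after the start and are not printed. No 2 of the matches found share a base.
Herpud1, short ER element (chr8:94386365-94386399, + strand): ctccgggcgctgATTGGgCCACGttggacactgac
Herpud1, composite site on the opposite strand (chr8:94386305-94386336, + strand): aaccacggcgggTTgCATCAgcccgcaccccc
Asns (chr6:7693213-7693244, - strand): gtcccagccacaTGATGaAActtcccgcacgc
Chac1, opposite strand (chr2:119351037-119351068, + strand): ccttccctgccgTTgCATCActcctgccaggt

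**Figure D1:**
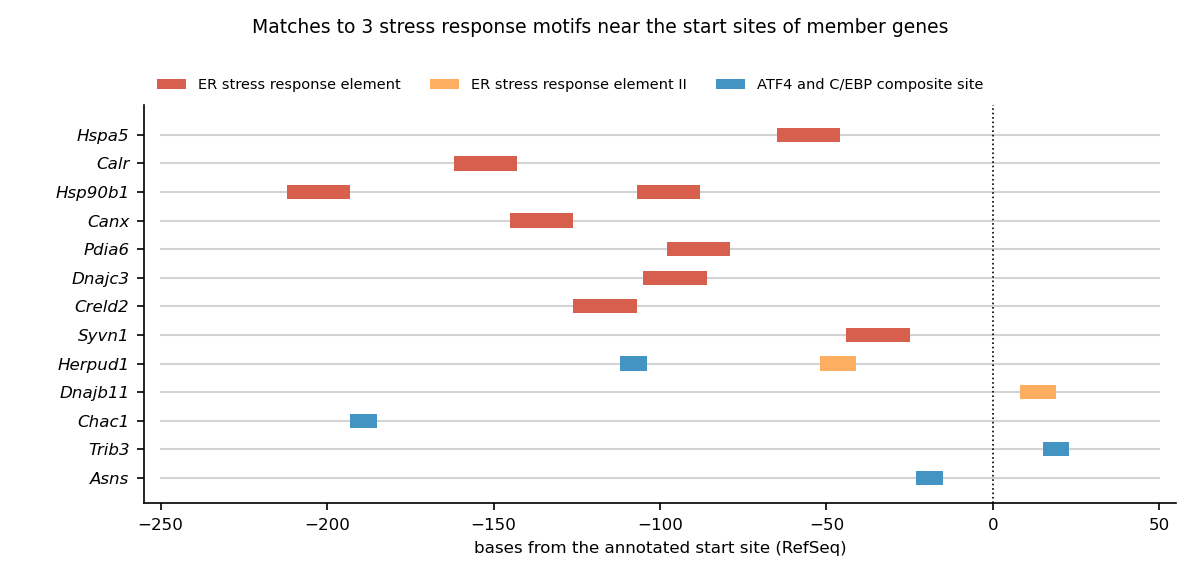
Positions of matches to the 3 motifs (coloured bars) in bases from the RefSeq start site (dotted line, horizontal axis) for the 13 genes with a match. The ER stress response element lies before the start in all 8 genes that hold it, and the composite site is seen in Asns, Chac1, Trib3 and Herpud1.

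Gfpt2 itself was examined first. Its 205 control and 57 knockdown UMIs in tumour-like cells were 1.98 and 0.652 CPM (UMIs of a gene per 1000000 UMIs of the same cells), a log2 ratio of -1.61 (-2.06 to -1.18). Cells with a summed Krt16 and Klk8 level of at least 3 per 10000 UMIs, 197 control and 45 knockdown cells, held 134 and 2 of these UMIs. Outside that state the level was 0.721 and 0.635 CPM, a log2 ratio of -0.18 (-0.72 to 0.34), so a lower level of the target was not detectable there at this depth. Control and knockdown library are therefore names taken from the labels throughout.

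The libraries held 11977 control and 12853 knockdown cells, of which 10663 and 11450 were kept, and 37 barcodes occurred in both. Tumour-like cells were those with no UMI of Ptprc (the leukocyte antigen CD45), Lyz2 under 5 per 10000 UMIs and at least 5000 UMIs, which gave 4964 control and 5170 knockdown cells with medians of 18746 and 14771.5 UMIs. Macrophages (C1qa, C1qb and C1qc together at least 10 per 10000) numbered 3827 and 4300 with medians of 5486 and 4031 UMIs, and T cells (Cd3d, Cd3e and Cd3g together at least 2 per 10000) numbered 668 and 557. Of the tumour-like markers Hmga2 was at 220 and 218 CPM and Vim at 2250 and 2201 CPM, while the epithelial markers Krt8, Krt18 and Epcam were under 0.1 CPM, so these cells are named by their gate. UMIs of Hmga2, Col3a1 or Dcn, genes of the tumour-like cells, were found in 46.4% of control and 55% of knockdown macrophages. In turn 87.0% of control and 83.4% of knockdown tumour-like cells held a UMI of a C1q gene, and their 8 macrophage markers summed to 183 and 210.2 CPM, against 31938 and 26952 CPM in the macrophages.

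Of the Atf4 arm, Phgdh was higher in tumour-like cells than in both immune classes, and Asns, Psat1 and Trib3 were higher than in macrophages. A gene was counted between classes when its CPM differed at least 2-fold, with a counting interval that excluded 1, in each library apart. On that count 5 of the 9 Atf4-arm genes (Trib3, Asns, Chac1, Psat1, Phgdh) were higher in tumour-like cells than in macrophages, against 16.2% of all genes. Control macrophages held under 100 UMIs of Chac1, so it reached 100 UMIs in that library only through the tumour-like cells and is not read as support. Phgdh was also higher than in T cells, where 11.9% of all genes were. Asns, Psat1, Trib3 and Chac1 passed that count too, but T cells held 57 and 27 UMIs of Trib3 and 7 and 6 of Chac1. They also held under 100 UMIs of Psat1 in each library and of Asns in the knockdown library. In these libraries such genes reached 100 UMIs only through the tumour-like cells, so they are not read as support. The interval of the Chac1 log2 ratio over T cells ran from 1.56 to 3.92 (control) and from 1.22 to 3.79 (knockdown). The Atf4-arm median was a log2 ratio of 2.34 over macrophages in control and 1.56 in knockdown cells, where the median of all genes was 0.31 and 0.22. The chaperone medians were 0.21 and 0.32. Among the 15 chaperones 2 were lower than in macrophages and 1 than in T cells, and among the 4 sensors and ER factors 2 were lower than in each class, where 16.6% (macrophages) and 14.6% (T cells) of all genes were, so the chaperone counts lie below those shares.

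Asns, which makes asparagine, was at 180 CPM (177 to 183) in control and 168 CPM (165 to 170.3) in knockdown tumour-like cells. In macrophages it was at 21.2 and 46.8 CPM and in T cells at 46.4 and 40.5 CPM, so the tumour-like cells stood above both immune classes in both libraries. Phgdh, the first enzyme of serine synthesis, was at 594 and 428 CPM in tumour-like cells, 68.1 and 109 CPM in macrophages and 273 and 151 CPM in T cells. Psat1, the next enzyme, was at 89.8 and 83.0 CPM in tumour-like cells, 17.8 and 28.2 CPM in macrophages and 25.5 and 24.9 CPM in T cells. The tumour-like level was again the highest in each library for both enzymes. Trib3, a pseudokinase that restrains Atf4, was at 74.0 and 65.7 CPM in tumour-like cells against 10.7 and 20.1 CPM in macrophages, and T cells held 57 and 27 of its UMIs. Chac1, which degrades glutathione, was at 18.1 and 16.9 CPM in tumour-like cells against 2.38 and 5.10 CPM in macrophages, and T cells held only 7 and 6 of its UMIs.

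Atf4 was also highest in tumour-like cells but by less, with 268 and 289 CPM there, 138 and 162 CPM in macrophages and 177 and 166 CPM in T cells. Ppp1r15a went the other way and was at 89.7 CPM in both libraries of tumour-like cells, against 299 and 436 CPM in macrophages and 267 and 308 CPM in T cells. It was at least 2-fold lower in tumour-like cells against both classes.

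Among the sensors, Ern1 was at 20.8 and 24.0 CPM in tumour-like cells, 64.7 and 72.1 CPM in macrophages and 154 and 143 CPM in T cells, an order with no overlap of intervals. Eif2ak3 was at 10.6 and 13.2 CPM in tumour-like cells, 14.6 and 16.7 CPM in macrophages and 62.6 CPM in both libraries of T cells, which makes it the only member that separated macrophages from T cells by the 2-fold count, where 9.75% of genes were lower in macrophages. Atf6 was at 26.2 and 30.1 CPM in tumour-like cells and at 83.2 and 88.9 CPM in macrophages. Xbp1 was at 56.9 and 57.2 CPM in tumour-like cells, 87.8 and 74.1 CPM in macrophages and 50.7 and 46.5 CPM in T cells, differences that stayed within 2-fold.

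Hspa5, the BiP chaperone that holds the sensors inactive, was at 388 and 468 CPM in tumour-like cells, 479 and 510.1 CPM in macrophages and 428 and 478 CPM in T cells, so its levels lay close together in the 3 classes. Dnajb9, a BiP co-chaperone, was at 20.6 and 26.6 CPM in tumour-like cells against 69.7 and 79.5 CPM in macrophages and 69.8 and 77.6 CPM in T cells. Sdf2l1, another BiP partner, was at 45.6 and 64.4 CPM in tumour-like cells against 144 and 130 CPM in macrophages. Pdia6, a protein disulfide isomerase, was the only chaperone at least 2-fold higher in tumour-like than in T cells (381 and 450.0 CPM against 183 and 170.1 CPM). Edem1, which directs misfolded glycoproteins to degradation, was lower in tumour-like than in T cells (32.5 and 35.1 CPM against 83.5 and 88.7 CPM). No other chaperone or degradation gene differed at least 2-fold from either immune class in both libraries.

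**Figure D2:**
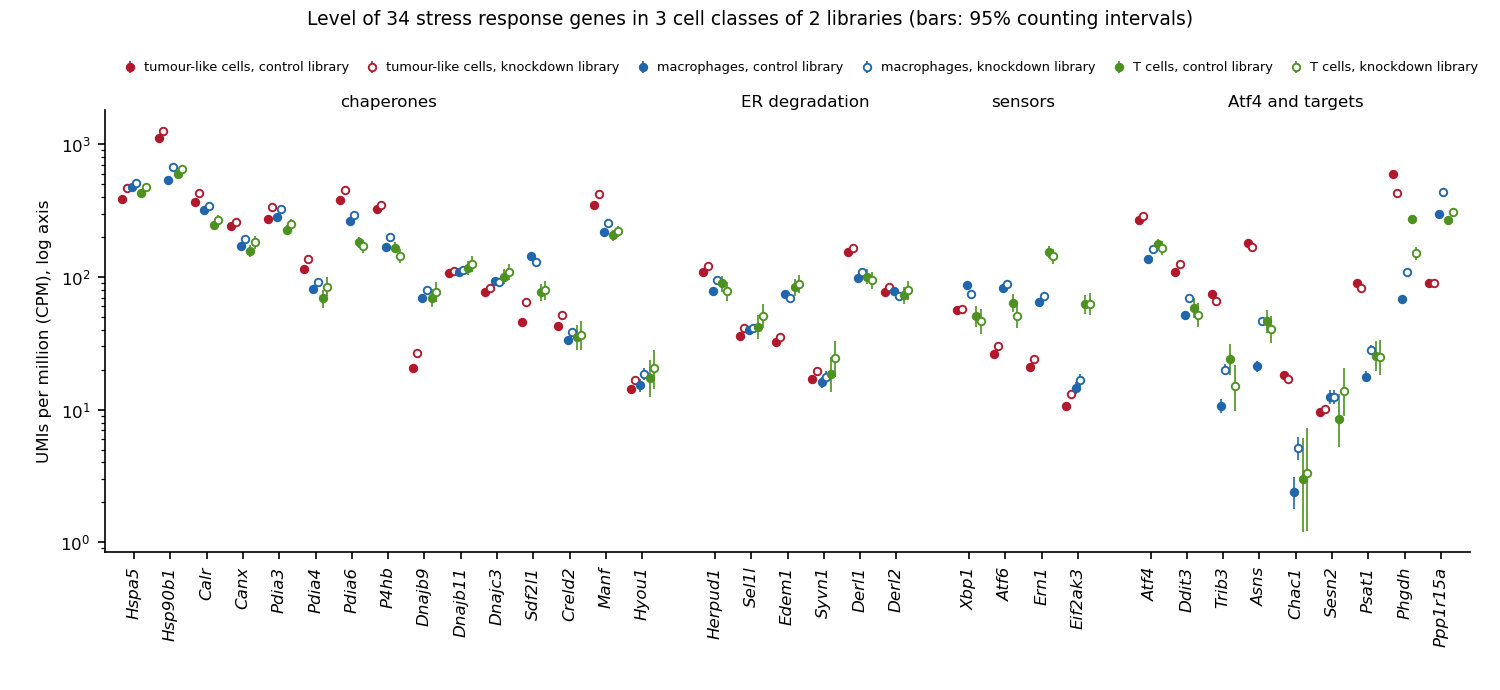
CPM (log axis) of the 34 genes in tumour-like cells (red), macrophages (blue) and T cells (green) of the control (filled) and knockdown (open) libraries, with 95% Poisson intervals as bars. Trib3, Asns, Chac1, Psat1 and Phgdh are highest in tumour-like cells, and Ern1, Eif2ak3 and Ppp1r15a are lowest there.

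In tumour-like cells 5 of the 15 chaperones were at least 1.2-fold higher in the knockdown library, and Phgdh was lower. Counted here were genes with at least 100 UMIs over both libraries that differed at least 1.2-fold with an interval that excluded 1. Of the 34 members 6 were higher, where 10.7% of all genes were, and 1 was lower, where 2.42% were. The 15 chaperones had a median log2 ratio of knockdown over control of 0.24 and all 15 lay above 0, the 6 degradation genes had a median of 0.15, the 4 sensors 0.20 and the 9 Atf4-arm genes -0.10. The median of all 13367 genes was 0.04, and 63.1% of them lay above 0. Scaled by that median, Hspa5 and Manf no longer passed 1.2-fold, while Sdf2l1, Dnajb9, Pdia3 and Eif2ak3 did, where 8.09% of all genes were higher.

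Sdf2l1 was at 45.6 CPM (control) and 64.4 CPM (knockdown), the largest ratio of the members at 0.50 (0.44 to 0.56). Dnajb9 followed with a log2 ratio of 0.37 (0.28 to 0.45). Pdia3, which folds glycoproteins together with the lectins, was at 272 and 338 CPM (0.32). Manf, a secreted ER stress factor, was at 348 and 426 CPM (0.29), and Hspa5 at 388 (384 to 392) and 468 CPM (464 to 473), a ratio of 0.27 (0.25 to 0.29). These 5 chaperones and Eif2ak3, at 10.6 and 13.2 CPM (0.31), made up the 6 higher genes. Hsp90b1, Calr, Pdia4, Pdia6, Creld2 and Hyou1 lay between 0.18 and 0.26. Dnajb11 (0.05), Dnajc3 (0.11), Canx (0.11) and P4hb (0.12) were the lowest of the chaperones.

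The 6 degradation genes ranged from 0.09 for Derl1 to 0.19 for Syvn1, the ubiquitin ligase of the pathway, and none passed 1.2-fold. Xbp1, the target of IRE1, was at 56.9 and 57.2 CPM and its ratio of 0.01 (-0.05 to 0.06) was the lowest among the sensors and ER factors. Atf6 (0.20) and Ern1 (0.21) stayed under 1.2-fold. The 8 chaperone genes that hold either ER stress element had a median log2 ratio of 0.20, and the 5 matched chaperone genes without one, which include Sdf2l1, Dnajb9 and Pdia3, had a median of 0.32.

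Phgdh was the only member lower by the same rule, at 594 CPM (589 to 598, control) and 428 CPM (424 to 432, knockdown), a log2 ratio of -0.47 (-0.49 to -0.45). Control cells of the Krt16 Klk8 state held 10166 of its 61339 control UMIs (2127 CPM), and without that state the ratio was -0.28 (519 and 426 CPM). Trib3 (-0.17), Psat1 (-0.11), Asns (-0.10) and Chac1 (-0.10) lay below 0 by less than 1.2-fold. Atf4 (268 and 289 CPM, 0.11) and Ddit3, the death-linked factor CHOP (110 and 125 CPM, 0.18), lay above 0, as did Sesn2 (0.07), while Ppp1r15a was equal.

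The share of cells rich in collagen transcripts (the matrix state defined with the other states) was 48.6% in control and 56.3% in knockdown tumour-like cells, and the 7 fibroblast markers summed to 2529 and 2837 CPM. Asns was at 106 and 118 CPM (0.15) within that state and at 232 and 217 CPM (-0.09) outside it, and the Atf4-arm medians were 0.15 and -0.08. The chaperone medians were 0.17 within and 0.25 outside it. The 8 B and plasma cell markers of tumour-like cells summed to 18.1 and 97.4 CPM. The 4 erythroid markers summed to 6.33 and 23.7 CPM in tumour-like cells, 15.9 and 60.3 CPM in macrophages and 11.9 and 46.0 CPM in T cells. The part of these other cells in the ratios was not tested.

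The direction of the Atf4 arm was not the same within a narrow range of depth, which differed between the libraries. Among the 2148 control and 2485 knockdown tumour-like cells with 10000 to 20000 UMIs, whose medians were 14966 and 14328, the Atf4-arm median was 0.25 instead of -0.10, and the median of all genes was 0.01. There Atf4 was at 232 and 276 CPM (0.25), Psat1 at 55.5 and 67.5 CPM (0.28), Asns at 130.2 and 146 CPM (0.17), Trib3 at 52.6 and 61.7 CPM (0.23) and Chac1 at 11.9 and 14.8 CPM (0.31). Sesn2 (0.40), Chac1 and Psat1 passed 1.2-fold, where 7.59% of genes did, and Phgdh kept its direction at -0.22 (428 and 367 CPM). The chaperone arm kept its direction with a median of 0.17, and 3 of the 15, Sdf2l1 (0.48), Hspa5 (0.30) and Manf (0.26), passed. Atf6 (0.27) was the other higher member, and no member was lower, where 4.08% of genes were. The part of depth in the whole-class values was not tested beyond this range.

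**Figure D3:**
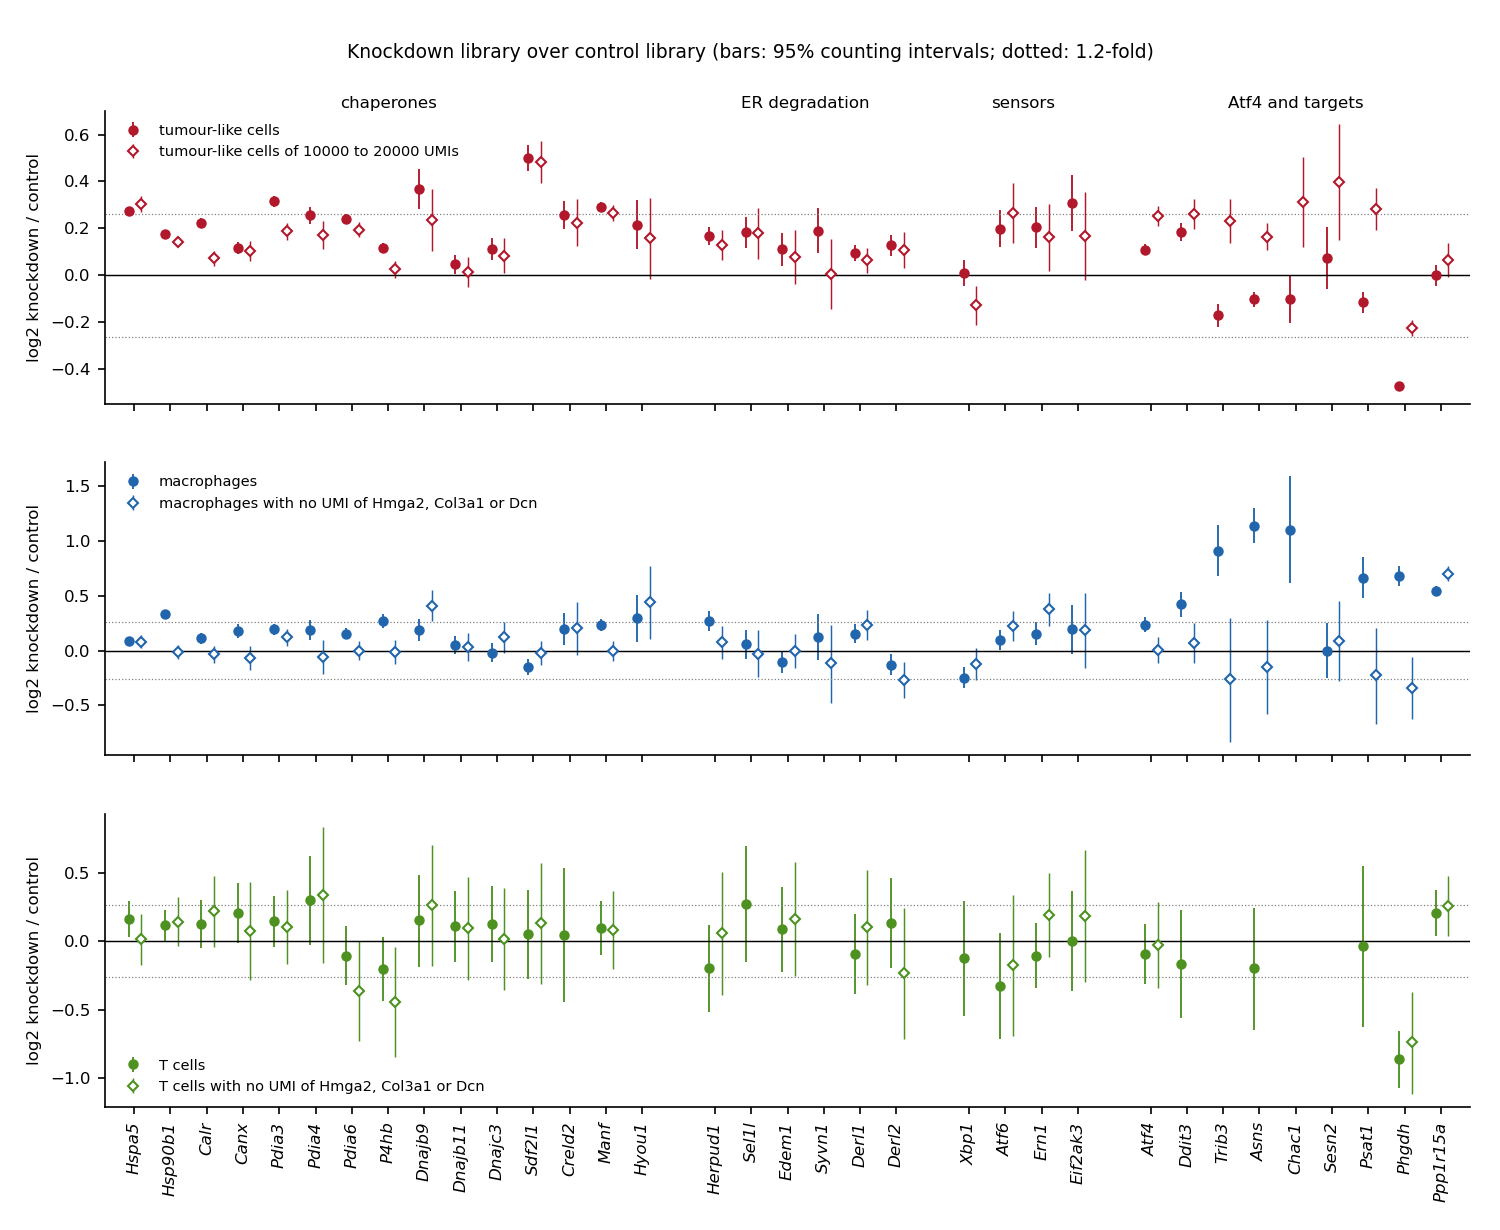
Log2 ratio of knockdown over control for the 34 genes in tumour-like cells, macrophages and T cells (filled circles, bars 95% counting intervals, dotted lines 1.2-fold), with tumour-like cells of 10000 to 20000 UMIs or immune cells without a UMI of Hmga2, Col3a1 or Dcn as open diamonds; genes under 100 UMIs are left out. The Atf4 targets of macrophages lie above 0 as circles, with Asns at 1.14, and near or below 0 as diamonds apart from Ppp1r15a.

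Macrophages of the knockdown library had higher levels of Atf4 targets, together with higher levels of genes that belong to the tumour-like cells. Of the 34 members 11 were higher (26.2% of all genes) and 0 lower (7.03%), and 7 of the 11 were Atf4-arm genes. Scaled by the median ratio of all genes, which lies 0.10 above 0 in this class, 7 members were higher and 1 lower. Of all genes 17.8% were then higher and 13.5% lower. Asns was at 21.2 CPM (19.4 to 23.2, control) and 46.8 CPM (43.9 to 49.9, knockdown), a log2 ratio of 1.14 (0.98 to 1.30). Chac1 (1.10), Trib3 (0.91), Phgdh (0.68), Psat1 (0.67), Ppp1r15a (0.54) and Ddit3 (0.42) followed. The Atf4-arm median was 0.67, the chaperone median 0.19 and that of all genes 0.10. With doublets kept the Atf4-arm median was 0.15 and 4 members were higher, where 16.4% of all genes were, with a median of 0.07. With Scrublet's own doublet threshold the arm's median was 0.26 and 6 members were higher, against 18.4% of all genes and a median of 0.07. Phgdh was at -0.15 and -0.12 under these settings. Hsp90b1 (0.34), Hyou1 (0.29), P4hb (0.27) and Herpud1 (0.27) were the other higher members. The lowest ratios were those of Xbp1 (87.8 and 74.1 CPM, -0.24), Sdf2l1 (-0.15), Derl2 (-0.13), Edem1 (-0.10) and Dnajc3 (-0.02).

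In the same macrophages Col3a1 was at 169 CPM (control) and 451 CPM (knockdown), and Hmga2 at 29.7 and 83.3 CPM. All 7 fibroblast markers were detected and summed to 305 and 764 CPM. The 7 tumour markers summed to 1136 and 1191 CPM, nearly all of it Vim, with Krt8 at 0 in both libraries and Krt18 at 0 in the control library. The summed markers of NK cells (5.80 and 15.4 CPM) and endothelial cells (15.8 and 29.7 CPM) were also higher in knockdown macrophages. Those of neutrophils (67.7 and 34.1 CPM) were lower through S100a8, S100a9 and Retnlg, while Csf3r (31.1 and 33.6 CPM) and Cxcr2 (0.130 and 0.146 CPM) were not lower. The part of these other cells in the ratios was not tested. Among the 2051 control and 1935 knockdown macrophages without a UMI of Hmga2, Col3a1 or Dcn, the Atf4-arm median over its 8 genes with 100 UMIs was -0.07 and that of all genes 0.01. Asns was then at 11.1 and 10.1 CPM (-0.14, interval -0.58 to 0.28), Trib3 at 6.90 and 5.76 CPM, Psat1 at 11.1 and 9.52 CPM and Phgdh at 28.0 and 22.1 CPM (-0.34). The chaperone median was 0.00. Among the 1776 control and 2365 knockdown macrophages with such a UMI, 8 of 9 Atf4-arm genes were higher (31.8% of all genes) and Asns was at 30.7 and 67.7 CPM. Of the 2 sets compared, higher Asns, Trib3, Psat1 and Phgdh were thus seen in the macrophages that also held UMIs of Hmga2, Col3a1 or Dcn and not in the others.

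Ppp1r15a differed from the other Atf4-arm genes. It was at 327 and 532 CPM in macrophages without tumour marker UMIs, a log2 ratio of 0.70 (0.64 to 0.77), and at 274 and 382 CPM (0.48) in those with such UMIs. It was the only Atf4-arm gene higher in the first set, where 9.84% of all genes were, and Phgdh was the only lower Atf4-arm gene (8.09%). In that set Hyou1 (14.5 and 19.7 CPM, 0.44), Dnajb9 (77.8 and 103.5 CPM, 0.41) and Ern1 (68.5 and 88.9 CPM, 0.38) were also higher, and Derl2 (78.5 and 65.2 CPM, -0.27) was lower. These 4 names were picked after their values were seen.

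T cells had the fewest UMIs, and 29 of the 34 genes reached 100 UMIs; Hyou1, Syvn1, Trib3, Chac1 and Sesn2 did not. None of the 29 was higher by 1.2-fold (6.58% of all genes) and 1 was lower (3.79%). That gene was Phgdh, at 273 CPM (253 to 295, control) and 151 CPM (133 to 169.7, knockdown), a log2 ratio of -0.86 (-1.07 to -0.65). Among the 423 control and 359 knockdown T cells without a UMI of Hmga2, Col3a1 or Dcn it was at 161 and 96.8 CPM (-0.74), and among the 245 and 198 with one at 395 and 209 CPM (-0.91), so it was lower in both sets. P4hb (121 and 89.4 CPM, -0.44) was the only other member lower in the first set, in which no member was higher, where 3.4% and 7.45% of all genes were. In the second set 2 chaperones and Derl2 were higher (7.38% of all genes), and Phgdh and Ern1 were lower (4.76%). Of the markers of other cells within the T cell gate, the 7 of fibroblasts summed to 925 CPM (control) and 625 CPM (knockdown) and the 8 of macrophages to 463 and 386 CPM. The 5 endothelial markers summed to 57.1 and 27.2 CPM, with Cdh5 and Emcn at 11 UMIs each in control and 0 in knockdown cells. The 5 markers of NK cells were higher in the knockdown library, with 1708 and 2088 CPM, mostly Nkg7 (1550 and 1880 CPM), as were the 6 of dendritic cells (7.24 and 21.6 CPM, Siglech at 0 in both) and the 8 of B and plasma cells (51.1 and 67.6 CPM, 4 of them at 0 in both). The 5 neutrophil markers summed to 3.41 and 2.77 CPM. The part of these cells in the lower Phgdh was not tested. The remaining T cell ratios ran from -0.33 for Atf6 to 0.30 for Pdia4, with Sel1l (0.27), Canx (0.21), Ppp1r15a (0.20) and Hspa5 (0.16) next to the highest and P4hb (-0.20), Asns (-0.20) and Herpud1 (-0.19) next to the lowest. Ppp1r15a, Hspa5 and Hsp90b1 (0.12) were the only T cell members besides Phgdh, of the 29, whose intervals did not hold 0. The chaperone median was 0.12 and the Atf4-arm median over its 6 genes -0.13, beside 0.03 for all genes.

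Within the tumour-like cells the 2 arms were split between states. States were set by summed levels of genes that are no members, may overlap, and are ranges of level and not cell types. The matrix state (Col1a1, Col1a2 and Col3a1 together at least 10 per 10000) held 2411 control and 2910 knockdown cells. Within 20% of its threshold lay 474 and 602 tumour-like cells, counted on both sides of it. In it all 9 Atf4-arm genes were lower than in the other tumour-like cells of the control library (16.9% of all genes) and 8 of 9 in the knockdown library (17.6%), with medians of -0.74 and -0.72 against 0.12 and 0.07 for all genes. Chaperones were higher, 8 of 15 in the control (33.6%) and 7 of 15 in the knockdown library (28%), with medians of 0.38 and 0.21. The chaperone counts thus lie above the share of all genes by less than the Atf4-arm counts do.

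Psat1 was at 49.1 CPM in matrix cells and 119 CPM in the other cells of the control library, and at 53.7 and 112 CPM in the knockdown library, log2 ratios of -1.27 and -1.06. Trib3 (-1.29 and -0.77), Chac1 (-1.13 and -0.75), Asns (-1.12 and -0.88), Phgdh (-0.74 and -0.72) and Atf4 (-0.55 and -0.45) were also lower in both libraries, and Ppp1r15a (-0.46 and -0.25) passed in the control library alone. Calr, the lectin chaperone of glycoproteins, was at 479 CPM in matrix cells and 289 CPM in the others of the control library, and at 519 and 340 CPM in the knockdown library (0.73 and 0.61). Pdia3 (0.70 and 0.53), P4hb, a subunit of the collagen prolyl hydroxylase (0.70 and 0.52), Dnajb9 (0.54 and 0.34) and Pdia4 (0.51 and 0.37) were higher in both. Hspa5 was not among them, with 0.08 and -0.07, nor were Manf (0.14 and -0.08) and Hyou1 (-0.08 and -0.05). Xbp1 was higher, at 72.5 CPM against 45.8 CPM outside the state (control) and 67.9 against 46.6 CPM (knockdown). Beside these results, the fibroblast markers Dcn (1823 against 465 CPM) and Pdgfra (72.8 against 21.0 CPM) were higher in control matrix cells and Hmga2 was lower (137 against 278 CPM). In the knockdown library Dcn was at 1696 against 459 CPM and Hmga2 at 164 against 273 CPM. Whether some matrix cells are host fibroblasts was not tested.

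The cycling state (Mki67, Top2a, Cdk1, Ube2c and Birc5 together at least 5 per 10000; 1903 and 2054 cells) had the reverse order. There 8 of 9 Atf4-arm genes were higher in the control (16.1% of all genes) and 7 of 9 in the knockdown library (18%), with medians of 0.38 and 0.40. Psat1 was at 126 CPM in cycling and 56.4 CPM in other control cells and at 114 and 53.4 CPM in the knockdown library, which gave log2 ratios of 1.16 and 1.09. Asns (0.54 and 0.40), Phgdh (0.53 and 0.46), Trib3 (0.56 and 0.28) and Atf4 (0.33 and 0.30) were higher in both, and Ddit3 alone lay below 0 (-0.11 and -0.15). Chaperones were lower, 7 of 15 in each library, where 27.9% and 23.2% of all genes were, with Dnajb9 (-0.61 and -0.46), Calr (-0.54 and -0.44) and Sdf2l1 (-0.50 and -0.45) first. Xbp1 was lower by 0.69 and 0.73 on the log2 scale.

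Cycling cells were deeper than the others, with medians of 24963 against 16288 UMIs in the control library, and matrix cells were shallower, with 15723 against 22268. Among cells of 10000 to 20000 UMIs the Atf4-arm median was -1.03 in the matrix and 0.34 in the cycling state of the control library, and -0.75 and 0.34 in the knockdown library. The chaperone medians there were 0.30 and -0.17 for control and 0.13 and -0.07 for knockdown cells, the same directions as over all depths.

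The knockdown over control ratio of Hspa5 was highest in the state marked by Cryab and Krt14 (311 control and 548 knockdown cells, 126 and 160 of them within 20% of the threshold), with 414 and 629 CPM there (0.60) against 386 and 447 CPM outside it (0.21). In this state 1 of 15 chaperones was higher than in the other control cells (5.36% of all genes) and 6 of 15 than in the other knockdown cells (5.79%), led by Sdf2l1 (46.4 against 45.5 CPM, 0.03, and then 104 against 59.1 CPM, 0.82), Manf (0.13 and 0.56) and Hspa5 (0.10 and 0.49). The difference between these ratios was not tested. In the Atf4 arm 4 (control) and 5 (knockdown) genes were higher, among them Trib3 (0.50 and 0.45) and Ddit3 (0.30 and 0.52). Phgdh was the only member lower, in the control library (22.1% of all genes), and no member was in the knockdown library (20.3%).

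Phgdh separated from Psat1 and Asns, the other amino acid enzymes, in the Krt16 Klk8 and Csmd3 Robo2 states. In the Krt16 Klk8 state of the control library it was at 2127 CPM against 519 CPM outside (2.03, interval 2.00 to 2.06), where Psat1 (-0.08), Asns (-0.23) and Trib3 (0.23) did not pass 1.2-fold. Sesn2 (0.97) and Ddit3 (0.36) were the other higher Atf4-arm genes and Ppp1r15a (-0.41) the lower one. The median over the 9 Atf4-arm genes was 0.23. Among the 67 cells of 10000 to 20000 UMIs it was 0.47, with 4 higher and 0 lower. The share of all genes was not counted in that range, so these counts cannot be set beside it. Of 15 chaperones 3 were higher and 1 lower, no more than the shares of all genes (23.4% and 19.1%). The 45 knockdown cells of this state were too few to compare. In the state marked by Csmd3 and Robo2 (110 and 150 cells) Phgdh was at 1443 CPM against 577 CPM in the control library (1.32) but at 483 against 427 CPM in the knockdown library (0.18), while Psat1 (-1.32 and -0.50) and Asns (-0.84 and -0.65) were lower there in both. Of the 9 Atf4-arm genes 5 were lower (11.3% of all genes) and 2 higher (27.7%) there in control cells, with a median of -0.36, and 3 were lower (8.78%) and 1 higher (22.7%) in knockdown cells, with a median of 0.18. Of the 15 chaperones 9 were higher in control and 3 in knockdown cells, the latter below the share of all genes. Among knockdown cells of 10000 to 20000 UMIs 1 was higher and 1 lower, with a median of 0.07 against 0.18 over all depths. The Atf4-arm median of those 75 cells was -0.11, and for them too the share of all genes was not counted. Within 20% of the threshold of this state lay 58 control and 97 knockdown tumour-like cells, counted on both sides of it. In the state marked by Tnnt2 and Tafa5 (255 and 118 cells) Hspa5 was lower, with 305 against 393 CPM (control) and 366 against 471 CPM (knockdown), and 7 (12% of all genes) and 6 (8.6%) of the 15 chaperones were lower. There 4 (control, 6.06%) and 1 (knockdown, 8.66%) of the Atf4-arm genes were higher, Asns in both (0.46 and 0.31), and Ddit3 (-0.36) was lower in knockdown cells (8.6%). Phgdh lay on the same side (0.22 and 0.20) without passing. Within 20% of its threshold lay 201 and 110 tumour-like cells, counted on both sides of it.

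**Figure D4:**
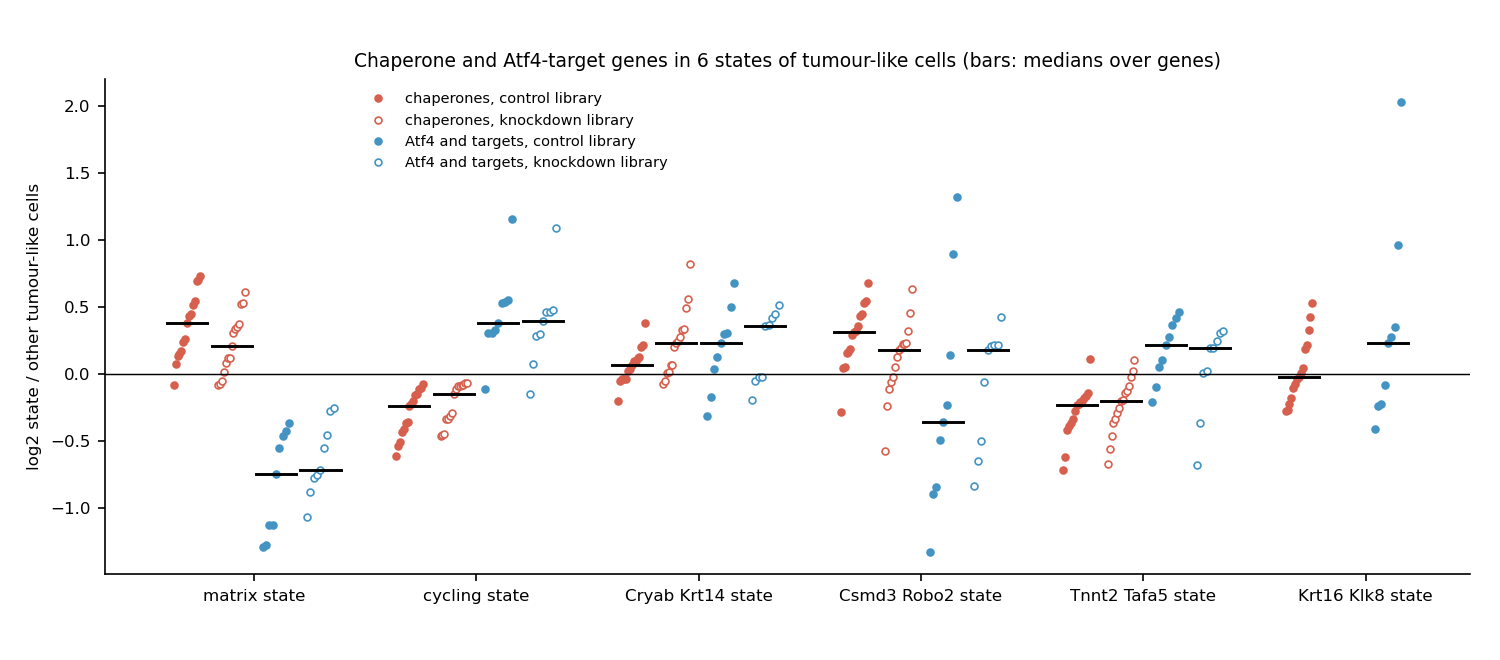
Log2 ratio of CPM in a state over the other tumour-like cells of the same library for the 15 chaperones (red) and the 9 Atf4-arm genes (blue), control filled and knockdown open; each point is a gene and black bars are medians. The Atf4-arm medians are -0.74 and -0.72 in the matrix state and 0.38 and 0.40 in the cycling state, and the highest point is Phgdh in the Krt16 Klk8 state.

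To see which members went together from cell to cell, tumour-like cells were thinned to 5000 UMIs and grouped by their UMIs of Asns, Trib3 and Chac1. The control library had 2079 cells with 0 of these UMIs and 846 with 3 or more, and the knockdown library had 2176 and 785. From the first to the last group Atf4 went from 188 to 378 CPM (control) and from 227 to 400 CPM (knockdown), Ddit3 from 68.9 to 201 and from 93.3 to 211 CPM, and Psat1 from 44.4 to 137 and from 47.4 to 112 CPM. These genes thus stood higher in the cells with more UMIs of the other targets, in both libraries. Hspa5 went the same way, from 370 to 487 and from 435 to 616 CPM, and Herpud1 from 89.6 to 150 and from 103 to 172 CPM. Calr went the opposite way, from 447 to 287 and from 495 to 392 CPM, as did Pdia3 (329 to 220 and 388 to 319 CPM) and P4hb.

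The share of matrix cells was lower in each following group, from 65.6% to 21.5% of control cells and from 69.1% to 31.2% of knockdown cells. The share of cycling cells was higher, from 29.1% to 53.0% and from 32.8% to 49.0%, and the depth before thinning went from 16289 to 22600 and from 13394 to 17118 UMIs. Outside the matrix state Atf4 still went from 225 to 383 CPM and from 269 to 435 CPM, and Hspa5 from 339 to 464 and from 397 to 645 CPM. Calr outside that state went from 329.5 to 247 CPM (control) and from 379 to 340 CPM (knockdown). The summed chaperones outside it went from 3568 to 3357 CPM in the control but from 4032 to 4570 CPM in the knockdown library, so their direction was not shared by the libraries.

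**Figure D5:**
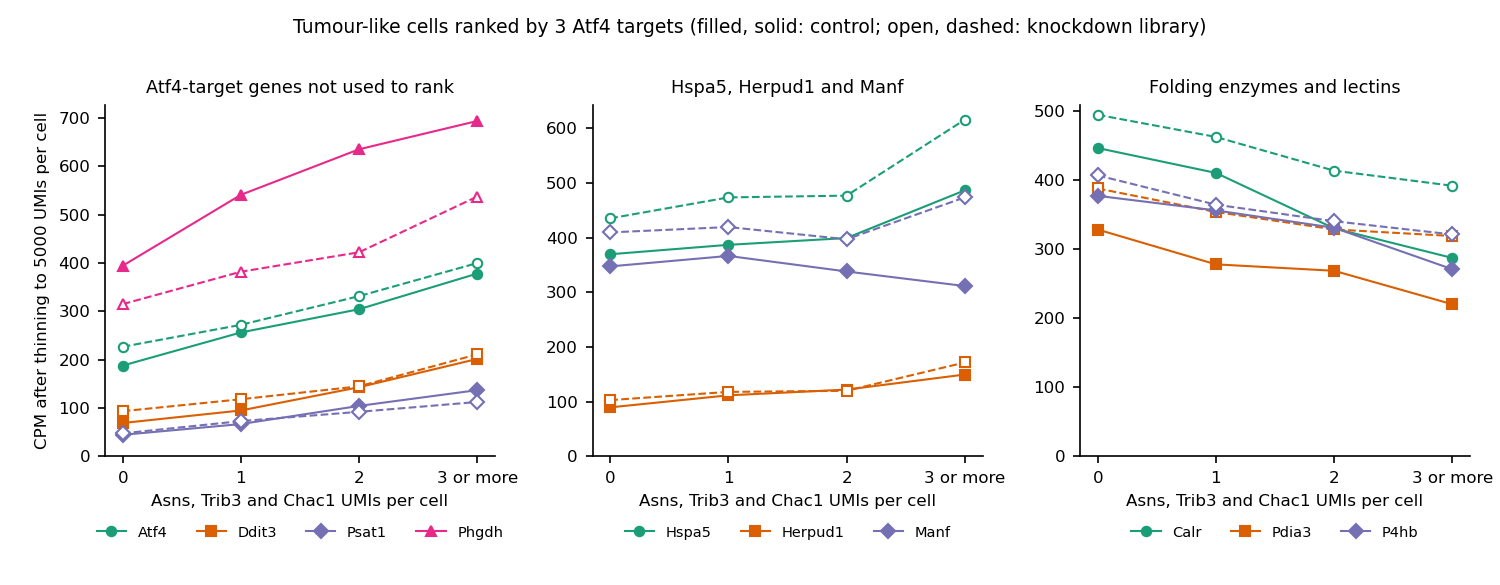
CPM after thinning to 5000 UMIs per cell (vertical axis, from 0) in tumour-like cells grouped by their UMIs of Asns, Trib3 and Chac1 (horizontal axis), control library solid and filled, knockdown library dashed and open. Atf4, Ddit3, Psat1, Phgdh, Hspa5 and Herpud1 are highest in the last group of each library, and Calr, Pdia3 and P4hb are lowest there.

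Other genes of the pathways, which are no members, had medians near that of all genes in tumour-like cells. Of 42 further ER folding and secretory genes 3 were higher in the knockdown library and 0 lower, below the 10.7% and 2.42% of all genes, with a median log2 ratio of 0.07. Ero1b, a disulfide oxidase (4.70 and 6.58 CPM, 0.48), Wfs1 (0.28) and Selenok (343 and 415 CPM, 0.27) were highest, and Ero1a (292 and 259 CPM, -0.17), Mbtps2 (-0.15) and Mbtps1 (-0.09), the protease that cleaves ATF6, were lowest. Of 43 further integrated stress response genes 42 reached 100 UMIs, 2 were higher and 1 lower, at or below the same shares, and their median was 0.00. Slc7a5, a leucine transporter (30.0 and 42.1 CPM, 0.49), Atf5 (146 and 188 CPM, 0.36) and Atf3 (0.23) were highest, and Fgf21 (108 and 41 UMIs, -1.16), Lars (-0.23) and Gpt2 (-0.21) were lowest.

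In macrophages 22 of 40 of the further integrated stress response genes and 12 of 42 of the secretory genes were higher, against 26.2% of all genes, with 1 lower in each list. In the macrophages without UMIs of Hmga2, Col3a1 or Dcn these counts were 1 of 35 and 0 of 38, against 9.84%, while 7 of the 35 and 1 of the 38 were lower, against 8.09%. In T cells 1 of 27 integrated stress response genes was higher and 4 were lower, and 1 of 30 secretory genes was higher, where 6.58% of all genes were higher and 3.79% lower.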

How the data were processed

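Raw UMI counts (whole numbers) of each cell were deposited by the authors for 1 control and 1 Gfpt2 knockdown library. Per the file headers they were made with Cell Ranger 6.1.0, whereas the submitters' processing notes name version 3.1.0; the genome build and annotation of the counts are not given in the sources used here. Cells with under 200 detected genes or over 20% mitochondrial UMIs were removed, and doublets were removed by Scrublet rank (1148 control and 1322 knockdown cells). Cells passing more than 1 gate (177 and 279) or no gate (1027 and 1144) were not used. CPM are summed UMIs of a gene per 1000000 summed UMIs of the same cells. Intervals are 95%: exact Poisson for CPM and exact conditional binomial for ratios, and they were checked on simulated counts. PCR and capture error are not in them. No p-value was computed.

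A ratio of counts was counted at 1.2-fold (2-fold between classes) with at least 100 UMIs. Ddit3 is listed under 2 identifiers, of which only 1 has UMIs. The members, lists, gates and states were chosen with earlier results of these data known. Every member is accounted for; named in full were Hspa5, Xbp1, Atf4, Ddit3, Asns, Trib3, Chac1, Psat1 and Phgdh, with up to 5 highest and 5 lowest ratios per comparison and 3 of each per further list. Reads from overlapping or near-identical genes cannot be told apart in the deposited counts. Promoters are RefSeq windows (GRCm38.p6), used for sequence only. Python 3.11.15, scanpy 1.11.5, numpy 2.4.6 and scipy 1.17.1 were used.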

Additional observations from a re-analysis of the deposited data

Results flagged for a closer look

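Phgdh was lower in the knockdown library in tumour-like cells (log2 ratio -0.47) and in T cells (-0.86) and higher in macrophages (0.68), opposite directions for the same gene. The difference between the classes was not tested. In macrophages without a UMI of Hmga2, Col3a1 or Dcn the Phgdh ratio was -0.34, the direction of the other classes.

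Sdf2l1 in the Csmd3 Robo2 state lay above the other tumour-like cells in the control library (0.43) and below them in the knockdown library (-0.57), from 118 and 82 UMIs in the state. This difference was not tested either.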

How the results depend on the processing

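No paired analysis was possible because each group has 1 library. Keeping all doublets gave macrophages an Atf4-arm median log2 ratio of 0.15, 4 higher members (16.4% of all genes) and a Phgdh ratio of -0.15, and gave T cells 3 higher and 3 lower members (6.16% and 3.44%). Scaling by the median ratio of all genes shifts tumour-like cells by 0.04, macrophages by 0.10 and T cells by 0.03. It gave tumour-like medians of 0.20 (chaperones) and -0.15 (Atf4 arm), and Hspa5 and Manf no longer passed 1.2-fold there. In macrophages it gave a chaperone median of 0.084, 7 higher and 1 lower members (17.8% and 13.5%), Hspa5 at -0.013 and Atf6 at -0.0072. T cells had 2 higher and 2 lower members with every cell weighted equally (10.9% and 5.41%), 5 and 2 with cells of several gates kept (9.91% and 4.19%), 2 lower with no filter on low values (2.81%) and 2 lower with a Ptprc UMI required (4.16%). Macrophages with a Ptprc UMI had an Atf4-arm median of 0.46 and 7 higher members (20.6%). A 1.5-fold rule left 0 higher and 0 lower members in tumour-like cells, where 2.93% and 0.845% of all genes passed, and 5 higher in macrophages, where 11.2% did. Taking the highest 5% of cells as a state gave chaperone medians of -0.11 (cycling), 0.34 (matrix) and 0.21 (Cryab Krt14) and a cycling Atf4-arm median of 0.15.

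The other alternatives were added after seeing the data. Scrublet's own threshold gave macrophages an Atf4-arm median of 0.26, 6 higher members (18.4%), Psat1 at -0.015 and Phgdh at -0.12, and T cells an Atf4-arm median of -0.61, 1 higher and 5 lower members (9.32% and 6.94%) and Hsp90b1 at -0.17. Tumour-like cells without a C1q UMI had a chaperone median of 0.17, 3 higher members (7.42%) and Dnajb11 at -0.0035. Tumour-like cells of 10000 to 20000 UMIs had medians of 0.17 (chaperones) and 0.25 (Atf4 arm, against -0.10), 0 lower members (4.08%), Trib3 at 0.23, Asns at 0.17, Chac1 at 0.31 and Psat1 at 0.28, chaperone medians over both libraries of -0.12 (cycling) and 0.21 (matrix) and Atf4-arm medians of -0.89 (matrix) and 0.47 (Krt16 Klk8, against 0.23). Macrophages without tumour marker UMIs had a chaperone median of 0.00015, an Atf4-arm median of -0.068 and 4 higher and 2 lower members (9.84% and 8.09%), with Hsp90b1 at -0.011, Calr at -0.032, Canx at -0.066, Pdia4 at -0.060, P4hb at -0.0086, Manf at -0.0041, Trib3 at -0.26, Asns at -0.14, Psat1 at -0.22 and Phgdh at -0.34; such T cells had 2 lower members (3.4%). The cause of these changes was not tested. T cell values rest on few UMIs, and their intervals set what could be seen.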
